A study of Mus musculus with 6 samples.

Results

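The 10 genes described here are textbook targets and handlers of glucocorticoid: Hsd11b1, Fkbp5, Tsc22d3, Zbtb16, Cebpd, Dusp1, Errfi1, Sgk1, Mt1 and Mt2. They were taken by gene symbol from the table of 46983 genes, each symbol matched 1 gene, and all 10 were among the 25903 genes tested. RNA was sequenced from aortic valves of wild type C57BL/6J mice killed on postnatal day 2 (PND2) or when 4 months old. There were 3 libraries per age, each from the pooled valves of 5 to 6 mice, and no animal received a drug. No group was therefore exposed to added hormone, and the comparison asks how far genes of this kind differ between the newborn and the adult valve. Both ages were killed with carbon dioxide, followed by cervical dislocation in adults and decapitation in pups, so age and this last step cannot be told apart. The labels do not give the sex of the mice, and the hour of collection is not given in the sources used here.

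Glucocorticoids (corticosterone in mice) leave the adrenal gland in a daily rhythm and in response to stress, and enter cells freely. Inside the cell the hormone binds the glucocorticoid receptor, a chaperone-bound transcription factor encoded by Nr3c1, which moves to the nucleus and raises or lowers many genes. Cells set their own exposure with the paired enzymes Hsd11b1, which regenerates active hormone from its inert keto form, and Hsd11b2, which inactivates it. Several of the genes below also answer other signals, metals for Mt1 and Mt2 and growth factors or stress for Dusp1 and Errfi1, so that their level is not a measure of hormone alone.

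Library totals ran from 23810507 to 38994657 reads, and the 10 genes had between 167 and 18507 reads in a library. Values are RPKM, reads scaled by exon length and by the library total. Of 10 valve interstitial markers all were detected at both ages, with summed RPKM of 6593 to 7230 at PND2 and 8084 to 10199.9 at 4 months. Other cells were present as well, since the sum of 10 cardiomyocyte markers was 18216 to 20849 RPKM at PND2 and 7332 to 11594 at 4 months. The sum of 8 smooth muscle markers was 7454 to 8614 and 16842 to 27883, that of 8 macrophage markers 197 to 249 and 423 to 542, and that of 8 endothelial markers 459 to 620 and 274 to 280.0. For 10 adipocyte markers the sum was 156 to 286 at PND2, where 3 were at 0 in every library, and 544 to 1967 at 4 months, with the highest value in replicate 2. For 6 erythroid markers it was 1865 to 2598 and 749.6 to 2158, and for 6 T cell markers 3.77 to 9.02 and 3.18 to 4.32. PND2 replicate 1 stood apart from its fellows for several of the genes below, so results that rest on it are also given without it. It was singled out by the values of these same genes, so calls gained without it are no independent support. In such bulk RNA, fewer cells of a type and less RNA per cell cannot be told apart, and the part of cell makeup in the results below was not tested.

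Of the 10 genes, 5 rose between PND2 and 4 months and 0 fell, where 35.8% of all genes tested were called, 14.7% higher and 21.1% lower. The 5 were Hsd11b1, Dusp1, Errfi1, Mt2 and Cebpd, by limma on log2(RPKM + 0.1) with a Benjamini-Hochberg adjusted p under 0.05 over all genes tested. None was called lower by limma or by voom on the recovered reads, and at an unadjusted p under 0.05 in limma 1 was, Fkbp5. The median log2 fold change of the 10 was 1.58, and that of all genes tested was −0.14. With libraries scaled to their medians these were 1.70 and −0.02, and the same 5 genes passed. The libraries of both ages did not overlap for 4 of the 10 upward (Hsd11b1, Dusp1, Errfi1 and Cebpd) and for 1 downward (Fkbp5), where 50.0% of all genes tested did not overlap, 20.0% upward and 29.9% downward. An exact permutation test of 1 gene, 2-sided and with so few libraries, could reach no p below 0.1.

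**Figure D1:**
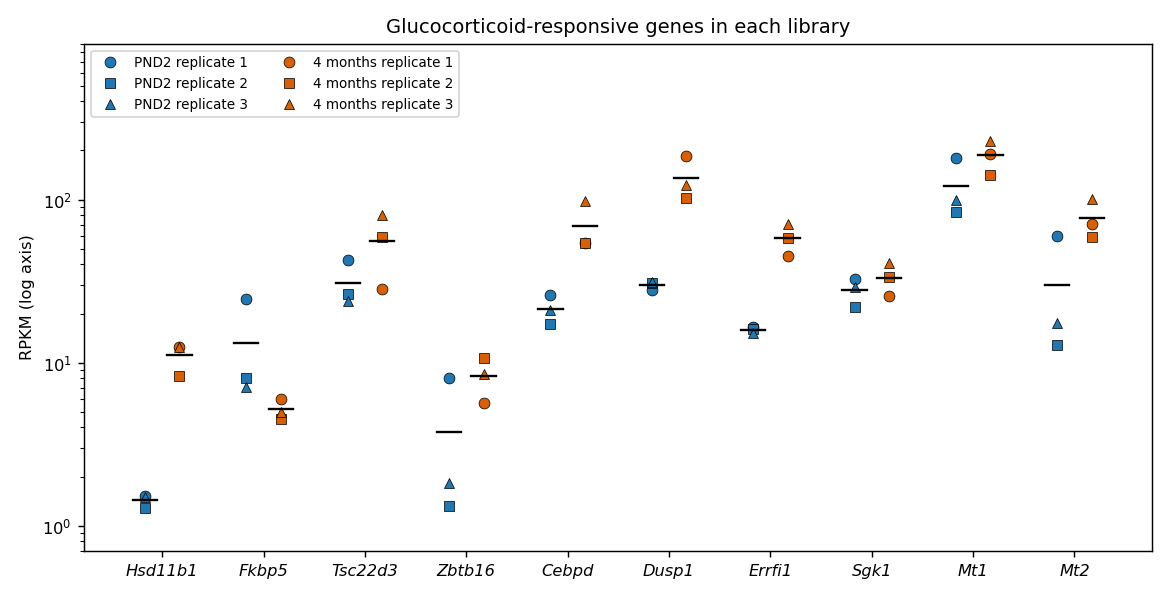
RPKM (log axis) of the 10 genes in each library, with PND2 in blue, 4 months in orange, 1 marker shape per replicate number and a bar at the mean of the 3 libraries. Hsd11b1, Cebpd, Dusp1 and Errfi1 lay higher in all 3 libraries of 4 months, while PND2 replicate 1 stood above the other PND2 libraries for Fkbp5, Zbtb16 and Mt2.

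The enzyme Hsd11b1 (chr1:193221634-193264075, minus strand, mm10) rose most. Its RPKM was 1.52, 1.29 and 1.503 in the PND2 libraries and 12.4, 8.30 and 12.5 in those of 4 months. Every library of 4 months lay far above every PND2 library, and the lowest adult value was in replicate 2, the library with the highest adipocyte marker sum. The means were 1.44 ± 0.13 and 11.1 ± 2.41 RPKM (SD, n = 3 libraries each), a ratio of 7.71, and the log2 fold change was 2.84 (SE 0.21, adjusted p = 0.000156). All 14 of its exons with at least 1 RPKM in 3 libraries rose, where 23.2% of all exons tested were called, 9.19% higher and 14.1% lower. These exons ran from the 5′ to the 3′ end of the gene, and overlapping models among them share reads. The call was kept in all 18 alternative analyses.

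Around this enzyme, the receptors rose as well. Nr3c1 had 20.8, 22.3 and 24.7 RPKM at PND2 and 41.3, 42.9 and 33.7 at 4 months, with no overlap (log2 fold change 0.79, SE 0.13, adjusted p = 0.00309). Nr3c2, the mineralocorticoid receptor, which also binds glucocorticoid, had 0.891, 1.78 and 1.55 RPKM at PND2 and 9.27, 9.11 and 8.06 at 4 months (log2 fold change 2.61, SE 0.26, adjusted p = 0.000483). PND2 thus had under 2 RPKM of Nr3c2 in every library and 4 months over 8. Of the exonic length of Nr3c2, 3.8% is shared with an antisense gene, and use of strand in counting is not stated. Hsd11b2 stayed low, at 0.746 to 1.24 RPKM at PND2 and 1.59 to 2.22 at 4 months, and did not pass the test (log2 fold change 0.83, adjusted p = 0.0558). H6pd, which supplies the cofactor that lets Hsd11b1 work as a reductase, had means of 25.4 ± 3.88 and 26.6 ± 3.42 RPKM, with a 95% confidence interval of the log2 fold change from −0.27 to 0.41.

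Among the classical targets Fkbp5, Tsc22d3, Zbtb16 and Cebpd, only Cebpd passed the test with all libraries. The log2 fold change was negative for Fkbp5 and positive for the rest. Fkbp5 (chr17:28399095-28517524, minus strand) encodes a co-chaperone that lowers the receptor's affinity for hormone and is one of the most widely used readouts of receptor activity. It had 24.4, 7.99 and 7.06 RPKM at PND2 and 6.02, 4.53 and 4.99 at 4 months. PND2 replicate 1 alone stood apart, at 3.05 and 3.45 times the other PND2 libraries, and all 3 adult libraries lay below all 3 of PND2. The log2 fold change was −1.10 (SE 0.44, adjusted p = 0.0928) and did not pass the test. Without PND2 replicate 1 it was −0.54 (adjusted p = 0.0607). In that fit 7 of the 10 genes rose, where 33.5% of all genes tested were called and 13.3% rose. As that library was singled out by its values of these genes, the added calls are no independent support.

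Tsc22d3 (chrX:140539528-140600659, minus strand) encodes GILZ, a leucine zipper protein that carries part of the anti-inflammatory action of the hormone. Its RPKM was 42.4, 26.2 and 23.9 at PND2 and 28.4, 58.7 and 80.0 at 4 months. The ages overlapped, because PND2 replicate 1 was high for its age and replicate 1 of 4 months was low for its own. The log2 fold change of 0.77 (SE 0.39) missed the threshold with all libraries (adjusted p = 0.163). It was 1.20 and passed (adjusted p = 0.0204) without replicate 1 of 4 months, and 1.03 (adjusted p = 0.105) without PND2 replicate 1.

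Zbtb16 (chr9:48654311-48835945, minus strand), which encodes the zinc finger repressor PLZF, had 8.04, 1.31 and 1.84 RPKM at PND2 and 5.63, 10.6 and 8.50 at 4 months. Again PND2 replicate 1 was unlike its fellows, at 6.13 and 4.38 times their values, and fell inside the adult range. With all libraries the log2 fold change was 1.52 (SE 0.62, adjusted p = 0.0978). Without PND2 replicate 1 it was 2.29 (adjusted p = 0.00404), a ratio of mean RPKM of 5.24.

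Cebpd (chr16:15887286-15888466, plus strand), a transcription factor of the acute phase response and of early adipocyte formation, had 26.0, 17.3 and 21.03 RPKM at PND2 and 54.4, 54.3 and 97.9 at 4 months. All adult libraries were higher, by a log2 fold change of 1.64 (SE 0.26, adjusted p = 0.0029). Its file entry carries the biotype pseudogene, with an exonic length of 1180 bases. The related Cebpa and Cebpb rose too. Cebpa went from 1.26, 2.03 and 2.24 RPKM to 15.8, 30.05 and 19.975 (log2 fold change 3.49, adjusted p = 0.000251), with its highest value in the library with the most adipocyte marker RNA. For Cebpb the values were 5.71, 9.87 and 7.999 and then 16.9, 19.4 and 30.3 RPKM (log2 fold change 1.48, adjusted p = 0.00547).

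**Figure D2:**
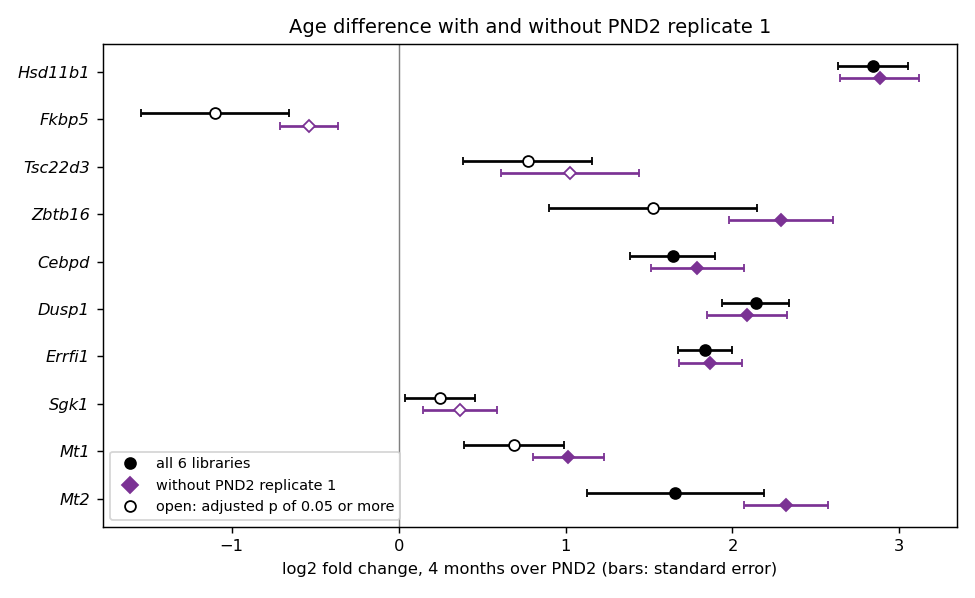
Log2 fold change of each of the 10 genes, 4 months over PND2, with its standard error, from limma with all 6 libraries (black circles) and without PND2 replicate 1 (purple diamonds); open symbols have an adjusted p of 0.05 or more. Leaving that library out moved Zbtb16 from 1.52 to 2.29, Mt2 from 1.66 to 2.32 and Fkbp5 from −1.10 to −0.54, and barely moved Hsd11b1, Dusp1 and Errfi1.

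Dusp1, Errfi1 and Sgk1 act on kinase signalling, and the first 2 rose while Sgk1 did not pass the test. Dusp1 (chr17:26505590-26508519, minus strand), a phosphatase that switches off the stress and growth MAP kinases, had 27.98, 31.0 and 31.2 RPKM at PND2 and 184, 102 and 124 at 4 months. The 3 PND2 libraries were nearly equal and every adult library was over 3 times higher. The ratio of the means was 4.55 and the log2 fold change 2.14 (SE 0.20, adjusted p = 0.000384). Errfi1 (chr4:150853919-150868892, plus strand), an inhibitor of the epidermal growth factor receptor, had 16.6, 16.0 and 15.2 RPKM at PND2 and 45.2, 58.1 and 70.7 at 4 months. It showed the same tight newborn values and wider adult ones, with a log2 fold change of 1.83 (SE 0.16, adjusted p = 0.000297). The rise was seen in 9 of 9 tested exons of Dusp1 and 5 of 5 of Errfi1, but overlapping exon models of these genes share reads.

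Both genes carry the full palindrome of the cyclic AMP response element, TGACGTCA, in the 250 bases before a RefSeq transcription start, as 1.55% of all 32851 such windows do (8 of the 10 genes had windows). It is the site of CREB family factors and is shown in capitals, with 30 bases in all, because both genes of this group that rose hold it. The windows of Hsd11b1 and Mt2, which also rose, hold no match, nor does a further window of Errfi1. Cebpd, which rose too, had no window. A link between the element and the rise was not tested. The Dusp1 stretch is chr17:26508597-26508626, minus strand, with the match ending 135 bases before the start. The Errfi1 stretch is chr4:150855008-150855037, plus strand, with the match ending 43 bases before a start.
Dusp1: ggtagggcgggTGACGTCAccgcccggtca
Errfi1: gctgcgggcgtTGACGTCAcgttgtcgctc

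Sgk1 (chr10:21882184-21999903, plus strand), a kinase that promotes sodium uptake and cell survival, had 32.5, 22.1 and 28.9 RPKM at PND2 and 25.5, 33.3 and 41.0 at 4 months. The ages overlapped and the log2 fold change was 0.25 (SE 0.21, adjusted p = 0.392), with a 95% confidence interval from −0.24 to 0.73. None of its 27 tested exons was called by limma across all exons, 1 of them with an unadjusted p under 0.05. That exon, chr10:21992223-21992407, starts the transcripts Sgk1-203 and Sgk1-212 and had 2.91, 2.30 and 4.25 RPKM at PND2 and 0.145, 1.59 and 0.560 at 4 months (log2 fold change −2.28, adjusted p = 0.0636).

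Among the 8 genes with windows, Sgk1 was the 1 with the full palindrome of the glucocorticoid response element, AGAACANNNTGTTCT, before a RefSeq start. Only 3 of the 32851 windows (0.00913%) hold this strict form. Looser forms and bases outside the windows were not searched. Of the 16 windows of these genes Sgk1 had the most, and Fkbp5 had only that of transcript Fkbp5-201. The lack of a match in the other genes thus does not show that they lack the element. The window below is chr10:21993640-21993889 (GRCm38.p6, plus strand), the capitals mark the palindrome, and 174 bases lie between its end and the start of transcript Sgk1-202. The first exon of that transcript, chr10:21993890-21994181, had 7.03, 5.16 and 4.10 RPKM at PND2 and 9.81, 6.04 and 11.004 at 4 months (log2 fold change 0.70, adjusted p = 0.176). Exons of starts further downstream were higher in every library, such as 28.2, 16.8 and 26.1 and then 18.6, 22.8 and 26.1 RPKM for that of Sgk1-201 (chr10:21994666-21994825).
Sgk1: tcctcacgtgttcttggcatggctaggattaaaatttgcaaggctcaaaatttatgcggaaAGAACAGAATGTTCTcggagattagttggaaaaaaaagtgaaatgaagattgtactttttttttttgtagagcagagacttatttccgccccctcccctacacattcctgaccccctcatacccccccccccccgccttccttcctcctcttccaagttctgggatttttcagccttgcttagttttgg

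The metallothioneins Mt1 and Mt2, small cysteine-rich proteins that bind zinc and copper, are neighbours on chromosome 8 and moved alike. Mt1 (chr8:94179089-94180325, plus strand) had 179, 83.5 and 99.4 RPKM at PND2 and 191, 142 and 230.2 at 4 months. Mt2 (chr8:94172618-94173567, plus strand) had 59.4, 12.8 and 17.5 RPKM at PND2 and 70.6, 59.1 and 101 at 4 months. In both genes PND2 replicate 1 was the highest of its age and inside the adult range. Mt2 passed the test with a log2 fold change of 1.66 (SE 0.53, adjusted p = 0.0459) and Mt1 did not (0.69, SE 0.30, adjusted p = 0.114). Without PND2 replicate 1 both passed, at 2.32 (adjusted p = 0.00207) and 1.02 (adjusted p = 0.0155). The call of Mt2 held in 7 of 18 alternative analyses and was lost without any 1 of the other 5 libraries (adjusted p from 0.0725 to 0.139). Over the 18 its adjusted p ran from 0.00207 to 0.24. Among 19 tested relatives of the 10 genes, Mt3 had 12.7, 5.66 and 17.4 RPKM and then 9.75, 2.58 and 1.73 (log2 fold change −1.58, adjusted p = 0.103), and Mt4 was at 0 in every library.

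The core of the metal response element (TGCGCNC or TGCACNC on either strand) occurs in 21.4% of the windows and 3 or more times in 1.26%. The window of Mt2 holds 3 matches, that of Mt1 holds 1 and that of Hsd11b1 holds 1. Annotated exons overlap the windows of Mt2 and Hsd11b1 by 250 bases each and that of Mt1 by 7, summed over exons. Bases beyond the RefSeq start were not searched, so these are not counts over whole promoters. They are printed for the metallothioneins because the pair moved together, with the core in capitals and 30 bases each. The Mt2 matches end 216, 121 and 43 bases before the start and lie in chr8:94172383-94172412, chr8:94172478-94172507 and chr8:94172556-94172585. The Mt1 match ends 16 bases before its start and lies in chr8:94179054-94179083.
Mt2 farthest from the start: cagcatcgcctcTGCACCCggcccctcggg
Mt2 between them: tcgcagacccttTGCGCTCagctcctttgc
Mt2 nearest the start: tggggggagggcGTGTGCAggctctgtccc
Mt1: gcggtcccgctgTGCACACtggcgctccag

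Of 13 tested genes in a list of 15 for zinc and redox metal handling, which includes Mt3, 2 rose and 3 fell, with a median log2 fold change of −0.23. Of all genes tested 35.8% were called, so this count is near the background. The 2 were Gclc, a subunit of the enzyme that starts glutathione synthesis (0.75, adjusted p = 0.00577), and the zinc importer Slc39a14 (0.51, adjusted p = 0.0114). The 3 were the importers Slc39a6 (−0.88, adjusted p = 0.00108) and Slc39a10 (−0.63, adjusted p = 0.00754) and Gclm, the partner of Gclc (−0.32, adjusted p = 0.0367). The zinc-sensing factor Mtf1 had means within the spread of the libraries (log2 fold change 0.05, adjusted p = 0.825).

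PND2 replicate 1 was the library in which the members differed most from others of their age. Fkbp5, Mt2 and Zbtb16, 3 of the 10, were at least 2-fold above both other PND2 libraries on the log2(RPKM + 0.1) scale, where 2.57% of all genes tested were (666 of 25903). The threshold was chosen after these values were seen. In a list of 30 further genes induced by glucocorticoid, 5 were: Fam107a, Slc10a6, Tat, Map3k6 and Lcn2. Fam107a, a stress-responsive actin regulator, had 7.19, 1.41 and 1.48 RPKM at PND2 and 6.23, 6.64 and 8.87 at 4 months. Lcn2 was also 2-fold above both others of its age in replicate 3 of 4 months. Next, 10614 protein-coding genes with a mean of at least 5 RPKM were ranked by this excess. Fam107a was 2, Zbtb16 4, Mt2 9, Slc10a6 10, Fkbp5 12 and Map3k6 18. Among other members, Tsc22d3 was 88, Sgk1 1117, Errfi1 2106, Hsd11b1 2521 and Dusp1 4812. The other ranked genes of the further list ran from Klf9 at 48 to Angptl4 at 9239, and Tat and Lcn2 were not among the ranked genes. No member was 2-fold above both others of its age in any other library, and 1 member, Tsc22d3 in replicate 1 of 4 months, was 2-fold below. With a pseudocount of 1 the same count was 3 for the members, 3 for the further list and 243 for all genes.

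The same library differed in other ways. Its RPKM of Xist, the RNA that coats the inactive X chromosome of female cells, was 109, against 0.0457 and 0.101 in the other PND2 libraries. At 4 months Xist was at 0.154, 110 and 40.8 RPKM, so that pools with and without it occurred at both ages. The ribosomal RNA gene Rn18s-rs5 had 6117 RPKM in PND2 replicate 1 and 547 to 1402 in the other 5 libraries, and mitochondrial genes held 8.998% of reads on genes, against 5.44% and 6.39%. Its adipocyte marker sum of 286 RPKM was the highest of its age. The part of each of these in the members' values was not tested.

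Tsc22d3, Zbtb16, Sgk1 and Errfi1 were higher, within both ages, in every library with Xist above 1 RPKM than in every library without, a pattern held by 7.59% of all genes tested. In the list of 30 further induced genes 9 had it: Cdkn1a, Ddit4, Fam107a, Glul, Klf15, Klf9, Map3k6, Per1 and Tat. This grouping of libraries was made after the values were seen and is not one of the study's. The ratio of 4 months to PND2 within the libraries with Xist was 1.35 for Mt2, 1.19 for Zbtb16 and 1.04 for Mt1, and within those without it 4.66, 3.58 and 2.09. For Hsd11b1 it was 6.84 and 8.91, for Dusp1 4.04 and 5.91 and for Errfi1 3.87 and 2.90. For Fkbp5 it was 0.195 and 0.80. The set with Xist holds 1 PND2 library, replicate 1, whose high values of Mt2, Zbtb16 and Mt1 are described above, and the other set holds 1 adult library, so these ratios are values with no test. With Xist as a covariate in limma, 4 of the 10 genes rose, where 14.9% of all genes tested did, without Mt2 (log2 fold change 1.31, adjusted p = 0.0634).

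**Figure D3:**
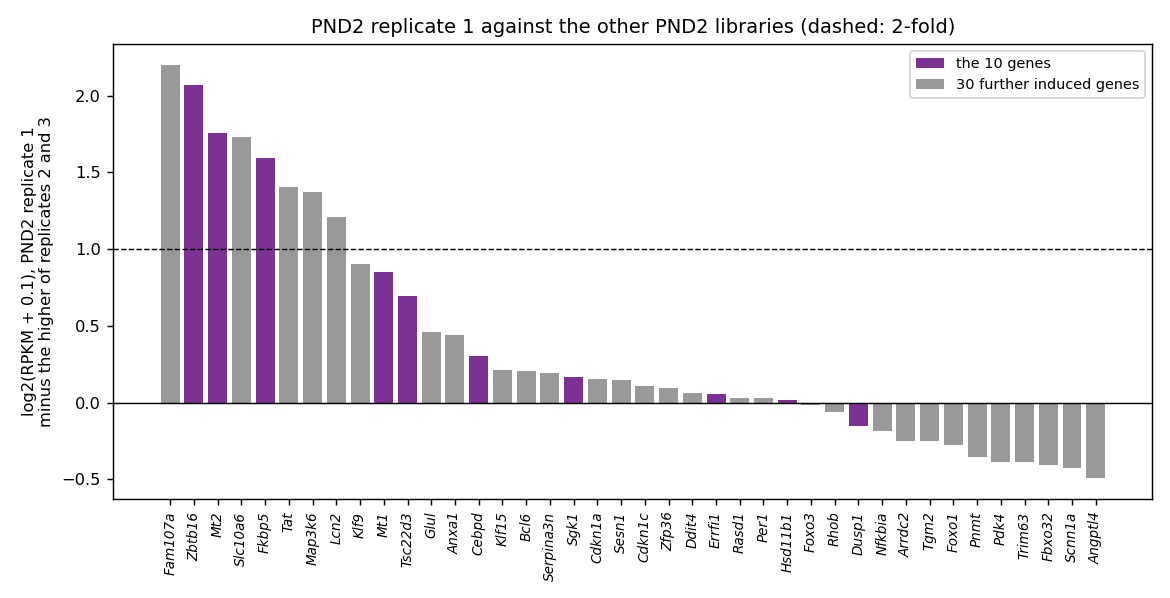
Difference of log2(RPKM + 0.1) between PND2 replicate 1 and the higher of the other 2 PND2 libraries, for the 10 genes (purple) and 30 further induced genes (grey), in falling order; the dashed line marks 2-fold. Fam107a, Zbtb16, Mt2, Slc10a6, Fkbp5, Tat, Map3k6 and Lcn2 lie above it, and Dusp1 lies below 0.

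Over the 6 libraries, the tested genes with a mean of at least 5 RPKM whose profiles were among the most like that of Fkbp5 included Ppp4r2 (Pearson's r = 0.996), Mpp6 (0.985), Gkap1 (0.984) and Med7 (0.981), out of 14214 compared. These values are a description with no test, since 6 points in which 1 library is far above the rest give high values readily. Ppp4r2, for example, had 29.1 RPKM in PND2 replicate 1 and 23.8 to 25.6 in the others.

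The exons of Tsc22d3 differed in direction between the ages. The gene has several starts, and an exon of the transcript that starts furthest upstream, Tsc22d3-203 (chrX:140598128-140598558), fell. It had 20.4, 19.5 and 16.9 RPKM at PND2 and 4.53, 6.43 and 6.09 at 4 months, with no overlap, and a log2 fold change of −1.73 (SE 0.24, adjusted p = 0.0026 by limma across all exons). The first exon of Tsc22d3-205 (chrX:140542846-140543101), far downstream and wholly inside that of Tsc22d3-201, so that their reads cannot be told apart, rose from 32.9, 21.1 and 19.8 RPKM to 36.1, 75.1 and 114 (log2 fold change 1.49, SE 0.40, adjusted p = 0.0323). The ratio of this exon to that of Tsc22d3-203 was 1.61, 1.08 and 1.17 in the PND2 libraries and 7.96, 11.7 and 18.7 in those of 4 months. It was higher in every adult library, also in replicate 1 of 4 months, where the gene as a whole was low (exact permutation test, 2-sided p = 0.1, the smallest possible). The downstream exon was picked as the first exon with the highest mean at 4 months. The upstream exon was picked for the highest mean at PND2. As the choice used the same values, this p-value is no independent support. A further start nearby, that of Tsc22d3-202 (chrX:140542511-140542668), had 6.17, 8.09 and 11.03 RPKM and then 3.22, 4.78 and 5.03, without overlap but not past the threshold (log2 fold change −0.93, adjusted p = 0.084). An exon shared by 4 transcripts, chrX:140542105-140542156, had 124, 97.0 and 78.9 RPKM and then 73.1, 163 and 213, with the ages overlapping. Of 10 exons tested 3 rose and 1 fell, and overlapping exon models of this gene share reads.

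In Fkbp5 the exons separated by start as well. Of 15 exons with at least 1 RPKM in 3 libraries, 14 were at least 2-fold higher in PND2 replicate 1 than in both other PND2 libraries. The exception was chr17:28485952-28486149, the first exon of Fkbp5-201, with 2.85, 3.14 and 3.62 RPKM at PND2 and 0.406, 0.424 and 0.523 at 4 months. These stand for 22, 19 and 21 reads and 3, 2 and 3 reads, and this was the 1 exon of the gene that passed the test (log2 fold change −2.58, SE 0.49, adjusted p = 0.00883). A first exon of Fkbp5-202 and Fkbp5-206 further upstream, chr17:28517395-28517524, had 26, 1 and 0 reads at PND2 and 4, 1 and 6 at 4 months. PND2 replicate 1 was highest at the far upstream start and not at that of Fkbp5-201, but these few reads are a small part of its 6050 reads on the gene, against 1552 and 1315. In Zbtb16 6 of 6 such exons and in Mt2 3 of 3 were 2-fold higher in that library, and in Dusp1 0 of 9. Fkbp5, Zbtb16 and Mt2 were singled out by their gene values in that library, which their exons make up. These exon counts are therefore no separate support, and overlapping exon models share reads.

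**Figure D4:**
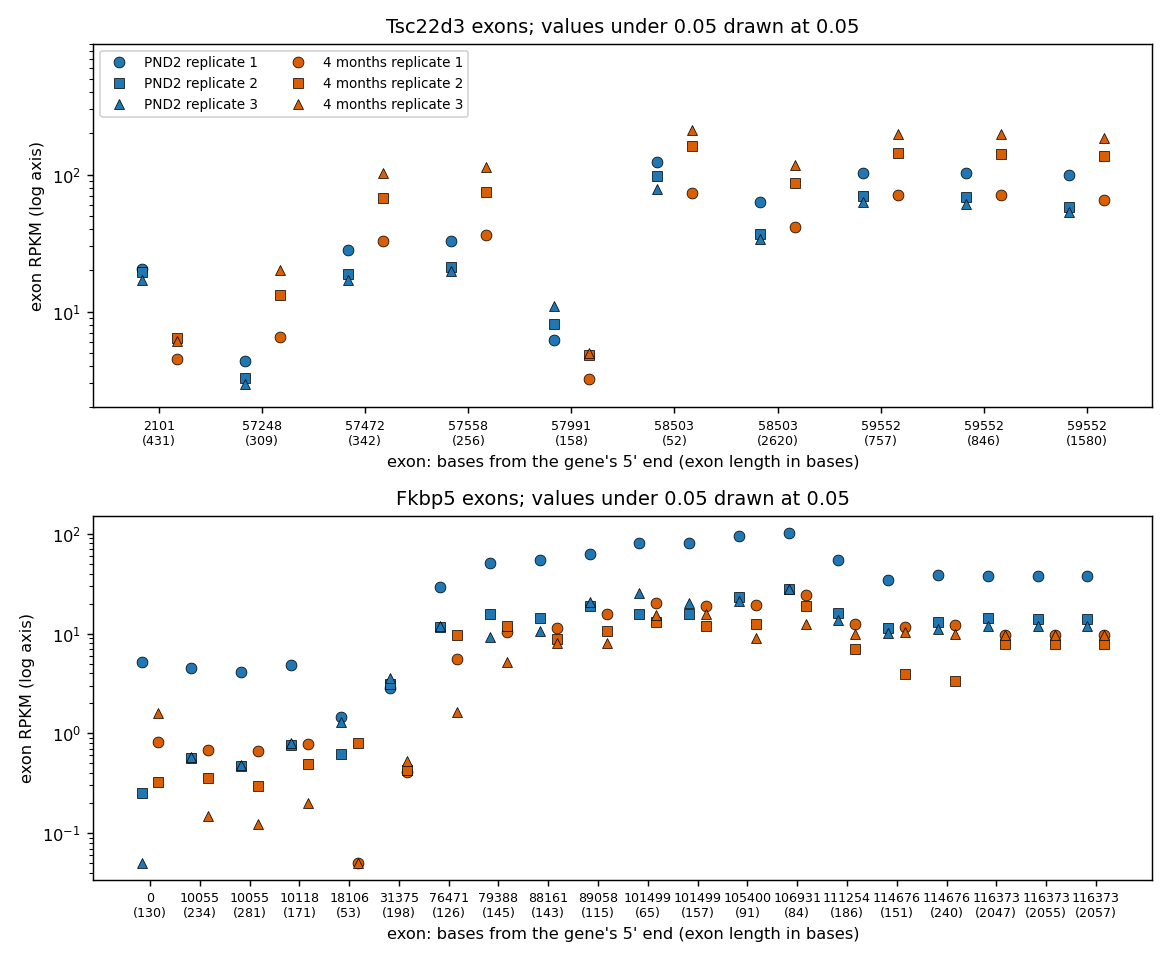
RPKM (log axis) of the exons of Tsc22d3 (top) and Fkbp5 (bottom) that reach 1 RPKM in any library, ordered from the 5′ end of the gene, with PND2 in blue, 4 months in orange and 1 marker shape per replicate number. The first Tsc22d3 exon drawn is lower at 4 months while those that start Tsc22d3-201 and Tsc22d3-205 are higher, and in Fkbp5 PND2 replicate 1 lies above all others except at 1 exon, the first of Fkbp5-201.

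Among the 30 further induced genes, none of them a member, 16 rose and 3 fell, with a median log2 fold change of 0.73, where 14.7% of all genes tested rose and 21.1% fell. Of the 5 largest rises, 3 were in transcription factors. Bcl6, a repressor of inflammatory genes, had 1.01, 0.861 and 0.867 RPKM at PND2 and 16.6, 14.1 and 20.9 at 4 months (log2 fold change 4.08, adjusted p = 3.2e-05). Klf9, a direct receptor target, had 19.99, 9.24 and 10.6 RPKM and then 51.4, 70.0 and 61.6 (log2 fold change 2.26, adjusted p = 0.00118), and its partner in many feed-forward responses, Klf15, had 6.88, 4.56 and 5.93 and then 18.4, 21.9 and 26.5 (1.93, adjusted p = 0.000507). In all 3 the ages did not overlap, and for Klf9 PND2 replicate 1 was again the highest of its age. Pnmt, which makes adrenaline, rose by a log2 fold change of 2.24 to a mean near 1 RPKM, and Fbxo32, a ubiquitin ligase of muscle wasting, by 1.72 (adjusted p = 0.000426). The 3 that fell were Angptl4, a lipase inhibitor (−1.63, adjusted p = 0.000434), the imprinted cell cycle inhibitor Cdkn1c (−1.41, adjusted p = 0.000181) and the muscle ubiquitin ligase Trim63 (−1.25, adjusted p = 0.00183). Trim63 and Fbxo32 are both made in heart muscle, whose marker sum was lower at 4 months.

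Of 17 tested genes that glucocorticoid is known to repress, 9 rose and 2 fell, with a median log2 fold change of 1.07, beside the same shares over all genes. The matrix protease Mmp3 had 1.10, 1.15 and 1.41 RPKM at PND2 and 90.8, 64.2 and 103 at 4 months (log2 fold change 6.01, adjusted p = 1.25e-05). The prostaglandin synthase Ptgs2 had 1.81, 1.15 and 0.910 RPKM and then 13.3, 13.7 and 26.5 (3.67, adjusted p = 0.000356), and Il1b, Mmp9 and the adhesion molecule Icam1 also rose, by 3.55, 3.32 and 1.82. The chemokine Ccl2 (−1.09, adjusted p = 0.0404) and the endothelial adhesion molecule Sele (−0.67, adjusted p = 0.0247) fell. Thus both the induced and the repressed list held more genes that rose than fell, while over all genes tested more fell than rose. Macrophage marker sums were higher at 4 months, beside Il1b and Mmp9, and their part was not tested.

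In the list of 28 genes of receptor, chaperone and hormone handling, of which 25 were tested, 8 rose and 1 fell (median 0.24). The share called was near the 35.8% of all genes tested. By direction, 32% of the list rose, where 14.7% of all genes tested rose and 21.1% fell. Besides both receptors, the genes that rose were the steroid-exporting pumps Abcb1a (2.12, adjusted p = 0.000688) and Abcb1b (1.54, adjusted p = 0.00591) and the chaperones Dnajb1 (1.97, adjusted p = 0.00283) and Hsp90aa1. The coactivator Ncoa3 and Cyp21a1, the adrenal hydroxylase, at low level, rose as well. Crh, the hypothalamic hormone that starts the stress axis, had 1.77, 1.84 and 2.05 RPKM at PND2 and 0, 0.0955 and 0.0523 at 4 months (log2 fold change −3.78, adjusted p = 0.00035). The receptor cofactors Ncoa1, Ncoa2, Ep300, Crebbp and Ncor1 had log2 fold changes between −0.14 and −0.04 and were not called. Of the 19 tested relatives of the 10 genes, 5 rose (26.3%) and 1 fell, the share called being again near that over all genes. The 1 that fell was the phosphatase Dusp2 (−1.30, adjusted p = 0.00479). The MAP kinase phosphatases Dusp4, Dusp5, Dusp6, Dusp10 and Dusp16 were not called. Their log2 fold changes were −0.42, 0.50 (adjusted p = 0.0694), −0.26, 0.27 and −0.05, beside 2.14 for Dusp1.

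Dusp1 is also an immediate early gene, 1 of the class that responds within minutes to handling, stress or growth factors. In a list of 28 immediate early and stress genes 20 rose and 3 fell, with a median log2 fold change of 1.44, where 14.7% of all genes tested rose and 21.1% fell. The list includes the heat shock genes Hspa1a and Hspa1b, near-identical copies whose reads may be split between them. Hspa1a had 10.4, 8.63 and 8.33 RPKM at PND2 and 647, 601 and 1495 at 4 months (log2 fold change 6.51, adjusted p = 3.5e-05), the largest difference in this list beside that of Hspa1b (6.61). Atf3, for example, had 15.8, 9.49 and 6.87 RPKM at PND2 and 133, 125 and 213 at 4 months (log2 fold change 3.90, adjusted p = 0.00023). The immediate early regulator Fos was highest in replicate 1 of 4 months, with 97.2 RPKM against 32.3 and 39.6, as Dusp1 was.

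Without PND2 replicate 1, 17 of the further induced genes rose and 3 fell, and the counts were 8 and 1 for the repressed genes, 7 and 2 for receptor and hormone handling, 2 and 2 for metal handling, 5 and 1 for the relatives and 19 and 2 for immediate early and stress genes. In that fit 33.5% of all genes tested were called and 13.3% rose, and the shares called for receptor and hormone handling, metal handling and the relatives were near it.

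**Figure D5:**
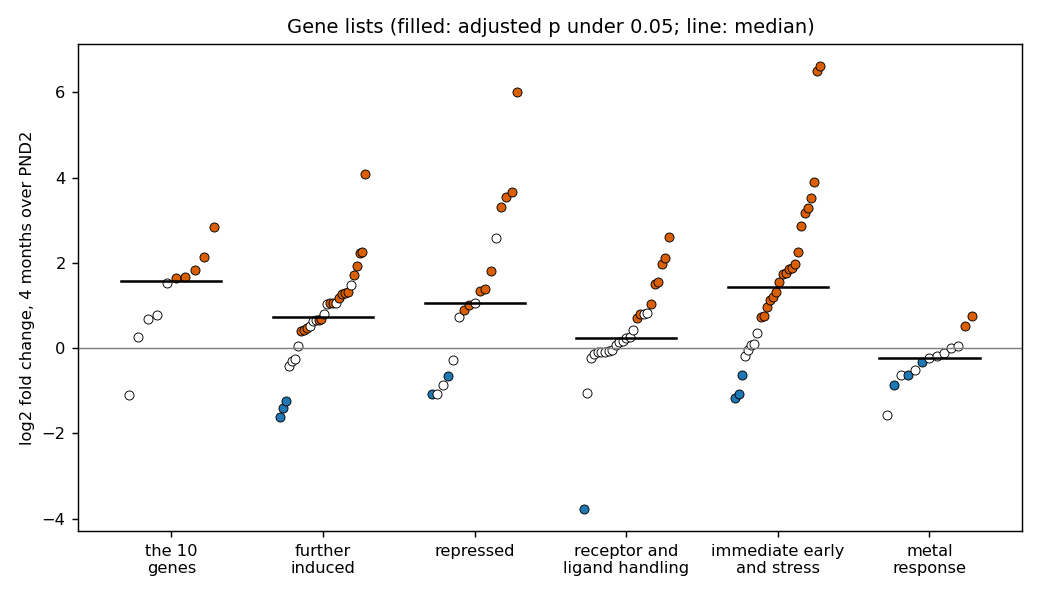
Log2 fold change, 4 months over PND2, of each tested gene of 6 lists, with genes in rising order within a list, filled orange or blue where higher or lower with an adjusted p under 0.05, open otherwise, and a line at the median. The medians were 1.58 for the 10 genes, 0.73 for further induced, 1.07 for repressed, 0.24 for receptor and ligand handling, 1.44 for immediate early and stress and −0.23 for metal response genes.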

How the data were processed

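Per the labels and the study's methods, total RNA from flash-frozen aortic valves was made into TruSeq stranded libraries and sequenced as paired reads. The authors aligned reads to mm10 with TopHat2 2.1.0, used easyRNASeq in R 3.2.2 for counts over Ensembl annotation, and deposited RPKM values per gene and per exon. Each RPKM times exonic length and library total gave whole reads (100% of values, tolerance 0.01), so depth is known. Whether counting used strand is not stated.

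The 10 genes and all lists were chosen with earlier results of these data known. Groups came from the labels, and libraries were taken as independent, so p-values measure the spread between pools. Genes that reached an RPKM of 0.1 in 3 libraries entered limma 3.58.1 (R 4.3.3) as log2(RPKM + 0.1), with an eBayes trend, 2-sided tests and Benjamini-Hochberg adjustment over all genes, and called at an adjusted p under 0.05. This scale understates changes of low genes. Exons with at least 1 RPKM in 3 libraries were fitted likewise, a fit added after the data were seen. Overlapping exon models share reads, so counts of exons are not counts of independent values. In simulated data for this comparison, limma found 198 of 200 changed genes, with 7 false calls. Those changes were large, in genes with many reads, and all genes had the same small spread. The simulation therefore checks the fit and does not measure its power at a spread such as that of Mt2 or Zbtb16. Alternatives were pseudocounts of 1 and 0.01, other filters, no trend, 2 scalings, a replicate block and voom on the recovered reads. Others were a floor of 10 reads, a per-gene test of the study's kind and each library left out. Xist as a covariate was added after the data were seen.

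In each list but the relatives, the genes named are called, without overlap, with a mean of at least 1 RPKM at the higher age, at most 5 rises and 5 falls. Genes named beyond this were chosen after their values were seen. Some genes that the rules select are not reported here. Positions are those of mm10, windows before starts and their sequences are from RefSeq on GRCm38.p6, and transcript names are from GENCODE M21, in which 112 of 121 exons of the 10 genes were found. Python 3.11.15, with pandas 2.3.3, numpy 2.4.6, matplotlib 3.10.9 and scipy 1.17.1, and the R package data.table (1.17.8) made the other values and the figures.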

Additional observations from a re-analysis of the deposited data

How the results depend on the processing

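Of the 10 genes, between 4 and 7 were called higher and 0 lower when each library was left out in turn. Over these fits the log2 fold change ran from −1.42 to −0.54 for Fkbp5, 0.45 to 1.20 for Tsc22d3, 1.03 to 2.29 for Zbtb16, 0.08 to 0.43 for Sgk1, 1.90 to 2.32 for Dusp1, 2.74 to 3.03 for Hsd11b1, 0.47 to 1.02 for Mt1, 1.22 to 2.32 for Mt2, 1.68 to 2.00 for Errfi1 and 1.36 to 1.79 for Cebpd. Zbtb16 and Mt1 passed without PND2 replicate 1 and Tsc22d3 without replicate 1 of 4 months, and Mt2 lost its call without each of the other 5 libraries. In the list of repressed genes 7 to 10 were called, in that of further induced genes 16 to 20.

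Mt2 also missed the threshold with a pseudocount of 0.01 (1.66), no filter (1.66), no trend (1.66), a floor of 10 reads (1.66) and Xist as a covariate (1.31). Under a per-gene test with unequal variances, the kind the study used, 1 of the 10 genes was called at an adjusted p under 0.05. The study also used looser cuts and put a floor of 10 reads under its values, so this count is not the study's own. Dusp1 (2.14, adjusted p = 0.0618), Mt2 (1.66, adjusted p = 0.24), Errfi1 (1.83, adjusted p = 0.0544) and Cebpd (1.64, adjusted p = 0.0662) then missed the threshold. That test called 3408 genes in all (9273 in limma), 4 in the receptor and hormone handling list, 11 of the further induced, 4 of the repressed, 1 of the metal and 11 of the immediate early and stress genes. The cause of these differences was not tested, but this test estimates the spread of each gene from its own 6 values.

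With the replicate number as a block, 5 of the 10 genes were called and 7167 genes in all, and no call of the 10 changed. Same-numbered libraries deviated from their age means with correlations of 0.0439, −0.0608 and −0.16, and other pairs with −0.176 to 0.233. These values show no pairing by number. They depend on each other and are too few to exclude one. Of 3002 values recomputed under an alternative, 138 lost a call, 38 gained one and 48 counts, medians or ratios moved. Among log2 fold changes of single genes, 0 with a call turned to the opposite direction. The other values were not checked for direction. Exon calls rest on few reads for low exons, 2 to 22 at the Fkbp5-201 start, and 6 libraries limit all tests.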
